A study of Mus musculus with 6 samples.

Results

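Semaphorins, plexins and neuropilins are guidance ligands and receptors first described in growing axons and later in vessels. Semaphorins are secreted (class 3) or bound to the membrane (classes 4 to 7), plexins are their signalling receptors, which act on small GTPases of the Ras family, and neuropilins are co-receptors that most class 3 semaphorins need and that also bind vascular endothelial growth factors. In lymphatic vessels neuropilin 2 assists the response to VEGF-C, and signalling by semaphorin 3A through neuropilin 1 takes part in valve formation. The members described here are the genes of these 3 families with a probe set annotated to that gene alone, chosen by symbol and not by their values: 20 semaphorins, 9 plexins and 2 neuropilins, 31 of the 18193 genes measured on the array. They are covered by 78 probe sets, and each gene is given by the probe set with the highest mean over the 6 arrays.

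RNA came from cultured mouse lymphatic endothelial cells (LEC) on 6 Affymetrix arrays, 3 per group, with 50 ng of total RNA per array. Normal LEC were taken from the tail dermis of female C57BL/6 mice 8 weeks old. Tumour LEC came from T241/VEGF-C/GFP fibrosarcomas grown in C57BL/6 mice. T241 is a mouse fibrosarcoma line, VEGF-C is a lymphatic growth factor and GFP is green fluorescent protein. The labels give no age or sex for the tumour-bearing mice and no animal or culture for a replicate, so each p-value reflects array-to-array spread alone, which may be technical, and the small number of arrays limits the precision. Both groups were grown in EGM-2 on gelatin and, per the labels, selected with antibodies to LYVE-1, although the tumour titles name fibrosarcoma cells where the source field names LEC, which was followed here, and the tumour protocol also describes a step of epidermis removal. Most tumour cells were lifted off before the LEC were detached. The groups differ in tissue of origin, in tumour and in the VEGF-C named in the tumour label, and these cannot be told apart.

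Endothelial and lymphatic markers were present on every array, and markers of fibroblasts differed widely between the groups. All 12 endothelial markers and 8 of the 9 measured lymphatic markers were above background on all arrays, Mmrn1 being the one at background, with Lyve1 between 13.65 and 14.91 and Prox1 between 7.73 and 8.92 on the log2 scale. Of 14 fibroblast or fibrosarcoma markers, 12 to 14 were above background on the normal arrays and 6 to 12 on the tumour arrays, and the log2 of their summed signal was 13.00 to 15.70 and 8.06 to 9.10. Normal replicate 1 stood apart: its median deviation from the gene means was 4.18, while the other normal arrays had 1.34 and 1.11 and tumour LEC had -2.47 to -1.84. Pdgfra, the fibroblast receptor for PDGF, was above background on all arrays, at 9.13 to 11.75 in normal and 4.66 to 5.74 in tumour LEC, and Lum and Fap were at background on all tumour arrays and on 2 normal arrays. Leukocyte markers were highest in tumour replicate 1 (median deviation 2.32, against -0.78 to 0.45 elsewhere, 11 genes), and the 9 measured genes of cell division were lowest in tumour replicate 3 (-2.01, against -0.75 to 0.96 elsewhere). Endothelial markers Pecam1 (5.59 to 8.86) and Cdh5 (9.62 to 11.65) were lowest in normal replicate 1. Mural cell markers were above background for 1 or 2 of 8 genes per array, keratinocyte markers for 2 of 6 and Schwann cell or melanocyte markers for 1 of 6. In such bulk RNA, fewer cells of a type and less RNA per cell cannot be told apart.

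**Figure D1:**
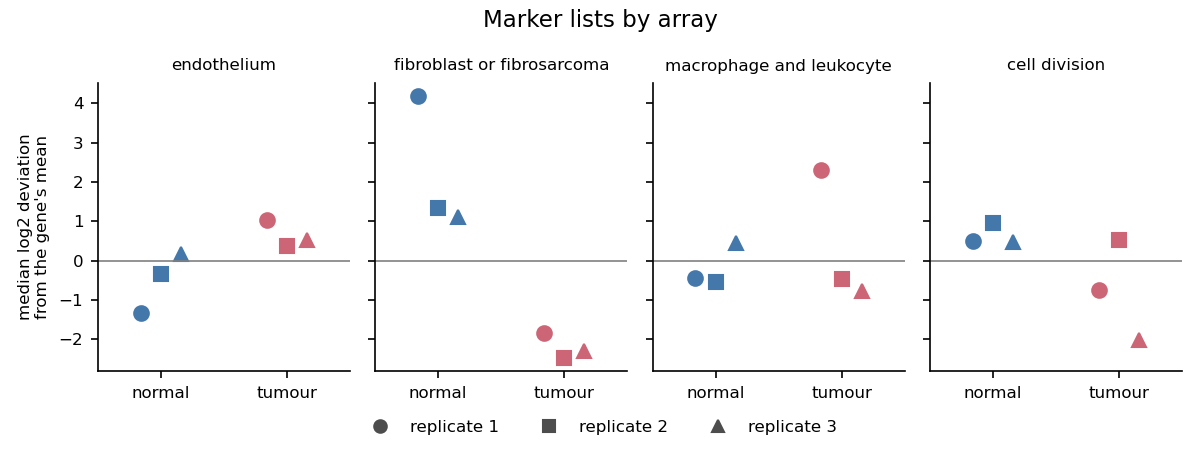
Median log2 deviation from each gene's mean over the 6 arrays, for 4 marker lists, with 1 point per array (circle, square and triangle for replicates 1, 2 and 3). Fibroblast markers separate the groups and are highest in normal replicate 1 (4.18), leukocyte markers are highest in tumour replicate 1 (2.32), and genes of cell division are lowest in tumour replicate 3 (-2.01).

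Sema7a rose and Sema3c fell in tumour LEC, and these were the members past an adjusted p of 0.05 (limma, Benjamini-Hochberg over 12955 genes, two-sided). Of the 31 members 27 were bright enough to be tested, and the 2 that passed stand beside 0.216% of all genes tested, 0.0463% higher and 0.17% lower. A further 4 members differed by at least 2-fold without passing: Sema3d, with more signal in tumour LEC, and Sema6d, Nrp1 and Sema3e, with less. The median difference over all 31 members was 0.04 on the log2 scale, beside 0.05 over all 18193 genes, and the 8 members with an unadjusted p under 0.05 are 8 of 27, beside 15.5% of all genes tested. With 1 array left out the count of 2 dropped to 1 without normal replicate 1, normal replicate 2 or tumour replicate 2, and to 0 without normal replicate 3, tumour replicate 1 or tumour replicate 3, in fits that also have fewer arrays.

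The ligands Sema7a and Sema3d lay higher, and Sema3c, Sema6d and Nrp1 lower, on every tumour array, but groups that do not overlap were common on the whole array. An array counts as at background where it lies at or below the highest of 27 control probe sets for absent bacterial RNA on that array, a limit of 3.40 to 3.71. By that limit 8 members were at background on all 6 arrays and 23 were above it on at least 1. Of these 23, the 3 tumour arrays lay wholly above the 3 normal arrays for 3 (Sema7a, Sema3d and Sema4a) and wholly below them for 7 (Sema3c, Sema3e, Sema4b, Sema6d, Plxna1, Plxnb2 and Nrp1), 10 in all, beside 27.2% of the 11105 genes tested that were above background on some array. At least 2-fold differences were found for 6 of the 23, beside 12.4%. Over the 27 tested members 13 did not overlap (6 higher and 7 lower in tumour LEC), beside 32.4% of all genes tested, and the split was 3 higher and 9 lower with each array centred on its median and 5 and 5 with quantile normalization. Among the 8 members at background on all arrays 5 were separated, each higher in tumour LEC. Of all 7063 genes at background on all arrays, 5411 lay wholly higher in tumour LEC and 9 wholly lower. The background controls also had the higher medians in tumour LEC (2.59 to 2.77, against 2.56 on each normal array).

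**Figure D2:**
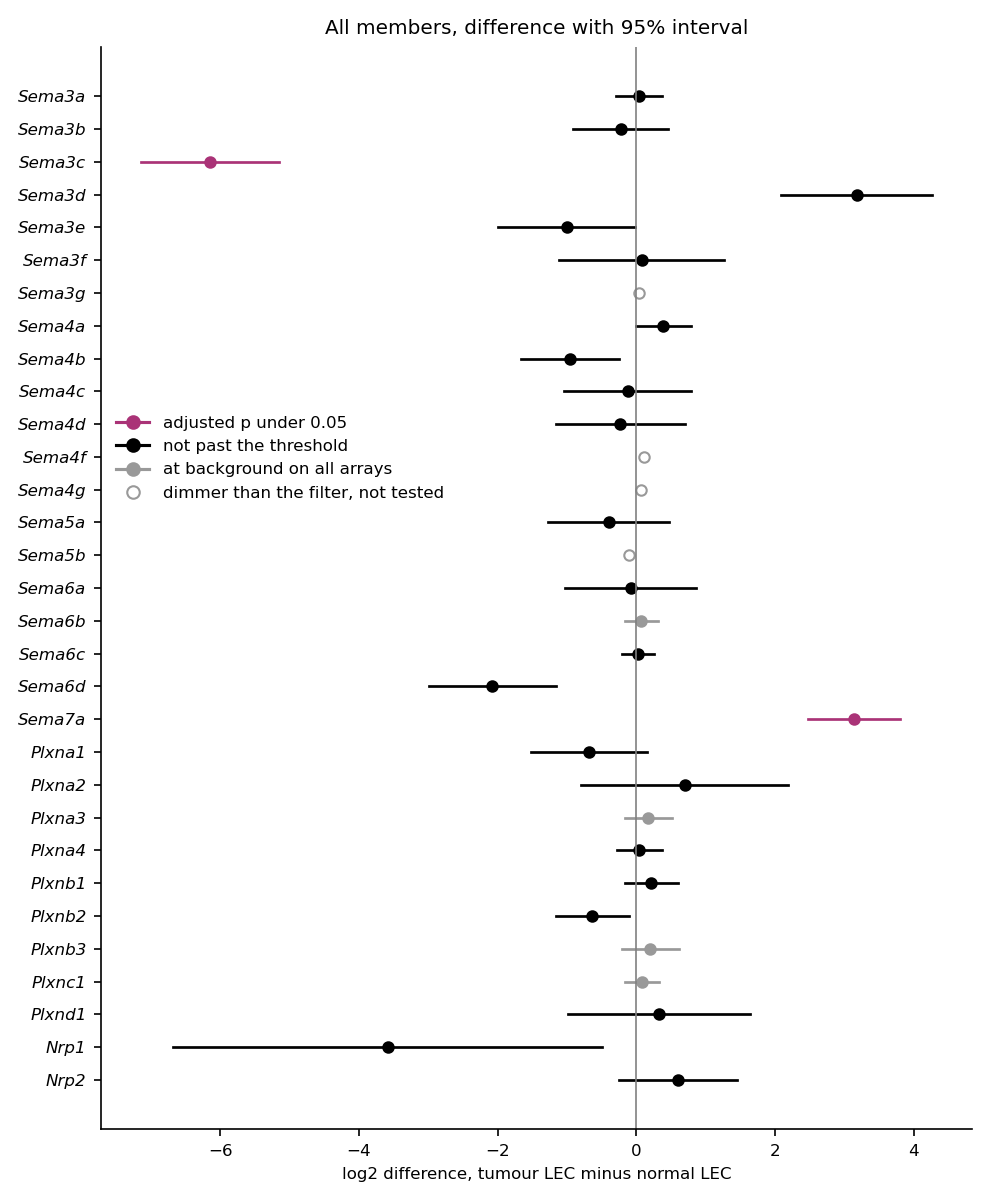
Log2 difference, tumour LEC minus normal LEC, for the 31 members, as points with 95% intervals from the limma fit where the gene was tested. Sema7a (3.14) and Sema3c (-6.15) passed the adjusted threshold, the intervals of Sema3d, Sema3e, Sema4b, Sema6d, Plxnb2 and Nrp1 do not reach 0 although these did not pass, and the 4 open points were dimmer than the filter.

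Among the membrane-bound ligands Sema7a, a GPI-anchored semaphorin that binds integrin beta 1 receptors and plexin C1, had the clearest gain. Sema7a read 6.18, 6.03 and 6.43 in normal replicates 1, 2 and 3 and 9.43, 8.83 and 9.77 in the tumour replicates. The lowest tumour array lay well above the highest normal array, and the normal arrays were close to each other (SD 0.20 against 0.48 in tumour LEC, n = 3 each). The difference was 3.14 (SE 0.27, 95% interval 2.47 to 3.80, adjusted p = 0.0276), or 8.79-fold. It rests on the probe set 1459903_at, since the other probe set of the gene, 1422040_at, was at background on all 6 arrays with a difference of 0.04. The adjusted p was 0.0504 without normal replicate 1, 0.0982 without normal replicate 2, 0.106 without normal replicate 3, 0.0857 without tumour replicate 1 and 0.158 without tumour replicate 3, with differences of 2.92 to 3.39 over all single arrays left out, and 0.0662 when dim genes were kept. Sema7a was highest in tumour replicate 3 and lowest in normal replicate 2, where genes of cell division were lowest (-2.01) and highest (0.96), and their part in the result was not tested.

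Of the receptors of Sema7a, plexin C1 was at background and both chains of integrin alpha 1 beta 1 were above it on all arrays. Plxnc1, plexin C1, was at background on all 6 arrays in its brightest probe set, with a difference of 0.08 (SE 0.10) that was -0.06 in the mean of its probe sets, and 5 of its 6 probe sets were at background throughout. Itga1, the integrin chain that pairs with beta 1 to bind semaphorin 7A and collagen, read 5.84, 5.18 and 5.65 in normal LEC and 8.13, 6.54 and 7.44 in tumour LEC. These groups did not overlap, and the difference of 1.82 (SE 0.43, adjusted p = 0.164) did not pass. Itgb1, the beta 1 chain, read 11.37, 11.45 and 11.53 in normal and 11.73, 12.07 and 12.26 in tumour LEC. Its groups did not overlap either, and the difference of 0.57 (SE 0.17, adjusted p = 0.224) did not pass.

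Of the secreted class 3 ligands Sema3c, which signals through neuropilins with plexins A and D1, was at background on every tumour array. Sema3c read 9.66, 8.19 and 8.50 in normal replicates 1, 2 and 3 and 2.71, 2.39 and 2.80 in the tumour replicates. The normal arrays were all bright, with replicate 1 the highest, and all tumour arrays lay below the background limit. The measured difference was -6.15 (SE 0.40, adjusted p = 0.0161), and against the background limit the level in tumour LEC was lower by at least 37.0-fold. The array with the highest Sema3c, normal replicate 1, also had the highest fibroblast markers, which were lower on all tumour arrays, and their part in the result was not tested. With that array left out the difference was -5.71 (adjusted p = 0.00257). Its other probe set, 1420696_at, was dim, with 5 of 6 arrays at background, and differed by -1.02. The call was lost without normal replicate 3 (adjusted p = 0.0698), on leaving out tumour replicate 1 (0.0716), 2 (0.0866) or 3 (0.158), while the differences in these 4 fits were -6.29 to -6.03, and with the mean of both probe sets (-3.58, adjusted p = 0.0552).

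Sema3d, a ligand of the same class that acts on endothelial cells through neuropilin 1 and plexin D1, had the opposite direction and did not pass. Sema3d read 6.31, 6.99 and 5.90 in normal replicates 1, 2 and 3 and 8.79, 9.90 and 10.05 in the tumour replicates. Every tumour array was above every normal array with tumour replicate 1 the lowest of the tumour arrays. The difference was 3.18 (SE 0.44, 95% interval 2.09 to 4.27, adjusted p = 0.0774), or 9.06-fold, as large as that of Sema7a with a wider spread. A second probe set, 1453148_at, differed by 1.47 (SE 0.36) and also separated the groups, with 4.09, 3.99 and 4.35 in normal and 5.06, 5.38 and 6.40 in tumour LEC. With its brightest probe set Sema3d passed under a 60th percentile filter (adjusted p = 0.0442) and when arrays were weighted by quality (0.0225).

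**Figure D3:**
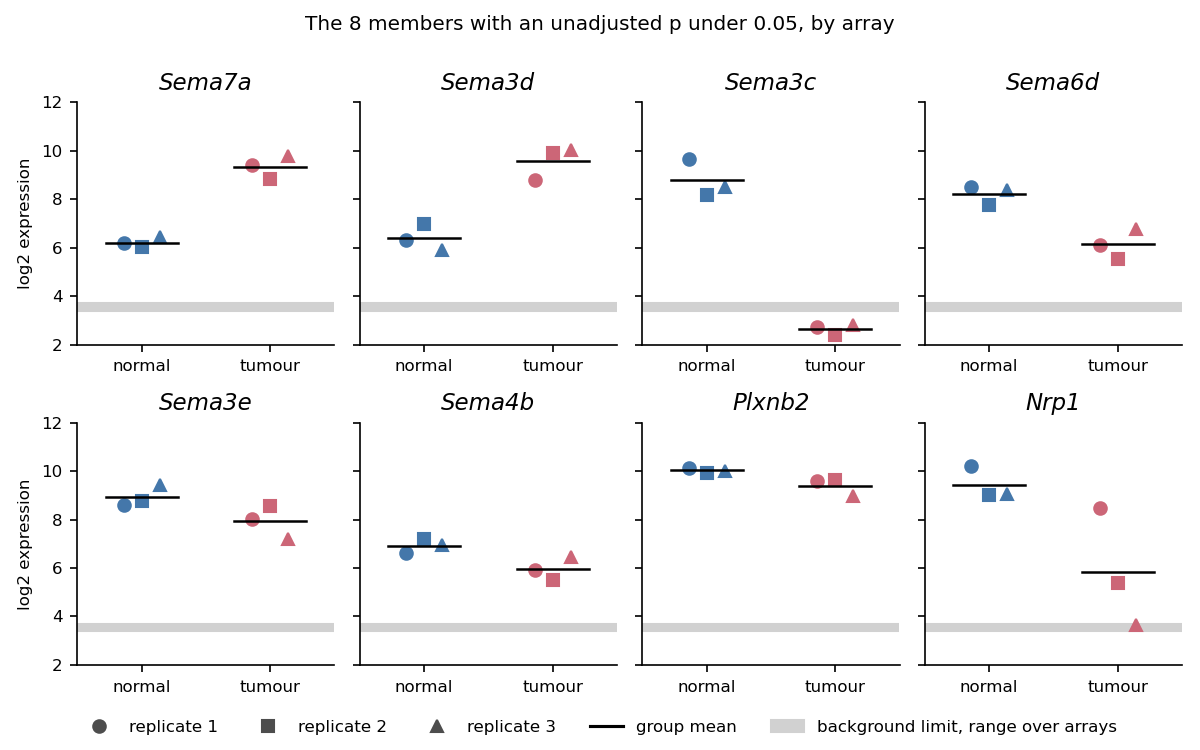
Log2 expression on each array for the 8 members with an unadjusted p under 0.05, with the group mean as a line and the range of the background limit over arrays (3.40 to 3.71) as a grey band. Sema7a and Sema3d are higher on all 3 tumour arrays, Sema3c lies below the band on all 3, and Nrp1 runs from 8.50 down to 3.67 across the tumour arrays.

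The stretches before the start sites of these 3 ligands are shown to set the gene that rose, the one that fell and the one of opposite direction in the same class side by side, since the arrays themselves give no reading of the promoters. They are the 250 bases before the start from RefSeq (GRCm38.p6), where 26 of the 31 members have an entry, 5′ to 3′ on the plus strand for all 3 genes, at chr9:57939862-57940111 for Sema7a, chr5:17574566-17574815 for Sema3c and chr5:12382916-12383165 for Sema3d. Capitals mark each GC box, GGGCGG on either strand.
Sema7a: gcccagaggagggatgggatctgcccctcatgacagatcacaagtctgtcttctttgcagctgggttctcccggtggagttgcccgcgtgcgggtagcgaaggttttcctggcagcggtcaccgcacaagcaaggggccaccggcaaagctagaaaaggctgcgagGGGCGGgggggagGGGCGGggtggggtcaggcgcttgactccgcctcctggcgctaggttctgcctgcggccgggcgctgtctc
Sema3c: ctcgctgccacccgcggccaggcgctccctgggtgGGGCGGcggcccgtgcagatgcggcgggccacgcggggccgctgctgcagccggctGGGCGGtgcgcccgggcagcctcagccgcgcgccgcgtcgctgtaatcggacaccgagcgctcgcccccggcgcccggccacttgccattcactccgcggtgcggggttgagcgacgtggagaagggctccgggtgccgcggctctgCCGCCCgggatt
Sema3d: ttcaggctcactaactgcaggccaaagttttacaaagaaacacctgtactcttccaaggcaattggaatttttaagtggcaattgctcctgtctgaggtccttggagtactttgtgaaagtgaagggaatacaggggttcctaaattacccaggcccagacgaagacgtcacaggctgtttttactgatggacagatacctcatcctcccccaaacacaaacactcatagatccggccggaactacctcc
Sema7a has 2 GC boxes and 66.4% G and C, Sema3c 3 and 78.4%, and Sema3d 0 and 46.8%, beside a median of 52.4% G and C over 32851 promoters of the same length, of which 32.7% hold a GC box. The E-box CACGTG, found in 6.02% of all these promoters, and TATAAA, found in 12.4%, are not in these 3 windows. Sema3a, Sema3c, Sema3d and Sema3e all lie on chromosome 5 in RefSeq, and their differences were 0.04, -6.15, 3.18 and -1.01.

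Sema3e, the ligand that binds plexin D1 without a neuropilin and restrains vessel growth, had less signal on all tumour arrays. Sema3e read 8.62, 8.78 and 9.42 in normal LEC and 8.04, 8.54 and 7.22 in tumour LEC. The groups were separated by a narrow margin, between normal replicate 1 and tumour replicate 2, and the difference of -1.01 (SE 0.40, adjusted p = 0.315) did not pass. Its 3 other probe sets pointed the same way, at -1.38, -1.06 and -0.62, and each of them separated the groups. The tumour array with the lowest Sema3e, replicate 3, also had the lowest genes of cell division and the highest background median (2.77), and their part in the result was not tested. Without that array the difference was -0.65 in the same probe set (adjusted p = 0.501) and -1.03 in 1442226_at, which was then the brightest, and with arrays weighted by quality it was -0.60.

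The other class 3 ligands showed little difference or no signal. Sema3a, the ligand of neuropilin 1 named for lymphatic valves, ranged from 8.40 to 8.75 over the 6 arrays and differed by 0.04 (SE 0.13, 95% interval -0.29 to 0.37). That interval lies within 2-fold in either direction for this probe set, but it reflects array-to-array spread alone, which may be technical. The sign changed in 4 of 15 settings. A dimmer probe set, 1449865_at, read 6.70 in tumour replicate 3 and 4.66 to 4.83 elsewhere. Its groups were separated by a very small step, at a difference of 0.70 (SE 0.54). The last probe set, 1420417_at, was at background on all arrays. Sema3f, which signals through neuropilin 2, read 7.77, 7.76 and 8.73 in normal and 7.65, 7.77 and 9.06 in tumour LEC, with replicate 3 the highest in both groups. Its difference was 0.07 (SE 0.48), with a sign that changed in 4 settings, and the brightest probe set is of a type prone to cross-hybridization (1438947_x_at). The second probe set, 1425840_a_at, read 5.70, 6.45 and 6.69 in normal and 7.21, 6.88 and 6.78 in tumour LEC, groups that did not overlap, at a difference of 0.68 (SE 0.28). Sema3b exceeded background in normal replicate 1 only (3.49), the array with the highest fibroblast markers, and Sema3g was at background on all arrays.

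Sema6d, a transmembrane ligand of plexin A1, had the largest difference of the membrane-bound ligands after Sema7a. Sema6d read 8.51, 7.76 and 8.38 in normal replicates 1, 2 and 3 and 6.12, 5.54 and 6.77 in the tumour replicates. No tumour array reached the lowest normal array, and within each group replicate 2 was the lowest. Fibroblast markers were also highest in normal replicate 1 (median deviation 4.18) and lowest in tumour replicate 2 (-2.47), and their part in the result was not tested. The difference was -2.08 (SE 0.37, 95% interval -3.00 to -1.15, adjusted p = 0.101), which did not pass, although it did with arrays weighted by quality (-2.55, adjusted p = 0.0264). Its 3 other probe sets were at background on all arrays. Plxna1, its receptor, read 7.59, 7.40 and 7.30 in normal and 7.26, 6.97 and 6.02 in tumour LEC, groups that were separated by a small step, with a difference of -0.68 (SE 0.34, adjusted p = 0.394). Tumour replicate 3 was the lowest, and without it the difference was -0.32 (SE 0.15).

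Class 4 ligands, transmembrane proteins of which several bind B plexins, were represented by 3 members above background in both groups, Sema4b, Sema4c and Sema4d. Sema4b read 6.61, 7.22 and 6.94 in normal and 5.94, 5.52 and 6.44 in tumour LEC. The groups did not overlap, and the difference of -0.96 (SE 0.29, adjusted p = 0.228) did not pass except with arrays weighted by quality (-1.31, adjusted p = 0.0484). Sema4c, a ligand of plexin B2, ranged from 6.62 to 7.75 and Sema4d, a ligand of plexin B1, from 5.02 to 6.11, with overlapping groups, differences of -0.13 (SE 0.37) and -0.23 (SE 0.37), and signs that changed in 4 and 2 settings. Sema4a was above background in tumour replicate 2 only (3.78) and differed by 0.39 (SE 0.16, adjusted p = 0.329). Sema4f and Sema4g were dimmer than the filter and at background on all arrays.

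Of the remaining membrane-bound ligands none above background gave a difference beyond the spread of its arrays. Sema5a exceeded background in normal replicate 1 only (3.94), and Sema5b and Sema6b were at background throughout. Sema6b lay higher on every tumour array by a very small step within that background. Sema6a, a ligand of plexins A2 and A4, ranged from 3.66 to 4.74 and differed by -0.08 (SE 0.38), with a sign that changed in 3 settings. Sema6c stayed between 4.96 and 5.06 on all arrays, with a difference of 0.03 (SE 0.09) whose sign changed in 2 settings. Its 2 other probe sets were at background on all arrays.

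Neuropilin 1, the co-receptor for semaphorin 3A and VEGF-A, was bright on every normal array and uneven on the tumour arrays. Nrp1 read 10.22, 9.00 and 9.07 in normal replicates 1, 2 and 3 and 8.50, 5.36 and 3.67 in the tumour replicates. All tumour arrays were below all normal arrays, yet tumour replicate 1 was near the normal range while replicate 3 was at background, and the SD was 2.45 in tumour LEC and 0.68 in normal LEC (n = 3 each). The difference of -3.59 (SE 1.24, 95% interval -6.68 to -0.49, adjusted p = 0.276) did not pass. Leukocyte markers were highest in tumour replicate 1, the array with the most Nrp1 among the tumour arrays. The macrophage gene Cd68 had the same order there (10.88, 7.90 and 4.82). So had Laptm5 (10.78, 7.70 and 6.34) and Lyz2 (10.06, 7.54 and 5.48). Csf1r (8.58, 3.77 and 3.88) and Cd14 did not keep that order. Cd14 read 11.11 and 10.31 in tumour replicates 1 and 2 and was highest in replicate 3, where Nrp1 was at background. Ptprc, which marks all leukocytes, was 5.92 in tumour replicate 1 and at most 3.36 elsewhere. The part of the leukocyte markers in the result was not tested. Without tumour replicate 1 the difference was -4.91 (adjusted p = 0.112), without tumour replicate 3 it was -2.50 (0.464), and without normal replicate 1, where Nrp1 and fibroblast markers were both highest, -3.19 (0.53).

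The same order of the tumour arrays was seen in the other bright probe sets of Nrp1. The probe set 1418084_at read 10.07, 8.68 and 8.79 in normal and 7.70, 3.64 and 2.94 in tumour LEC. For 1448944_at the values were 8.94, 7.53 and 7.60 in normal and 6.56, 3.71 and 2.36 in tumour LEC. Their differences were -4.42 (SE 1.32) and -3.81 (SE 1.13), and neither passed when all 27022 probe sets were tested. The last probe set, 1457198_at, was at background on 5 of 6 arrays and differed by -0.45.

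Neuropilin 2, the co-receptor for semaphorin 3F and VEGF-C, was bright in both groups. Nrp2 read 9.45, 10.35 and 10.75 in normal and 10.88, 10.83 and 10.62 in tumour LEC. The tumour arrays were close together (SD 0.14), 2 of them were above the whole normal range, and the third lay within it. The difference was 0.60 (SE 0.34, adjusted p = 0.449), and the lowest array was normal replicate 1, where endothelial markers were also lowest (median deviation -1.34). Without it the difference was 0.23, and their part in the result was not tested. The other probe sets of Nrp2 differed by 0.40, 0.30 and 0.23, the last from a probe set at background on 5 arrays.

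**Figure D4:**
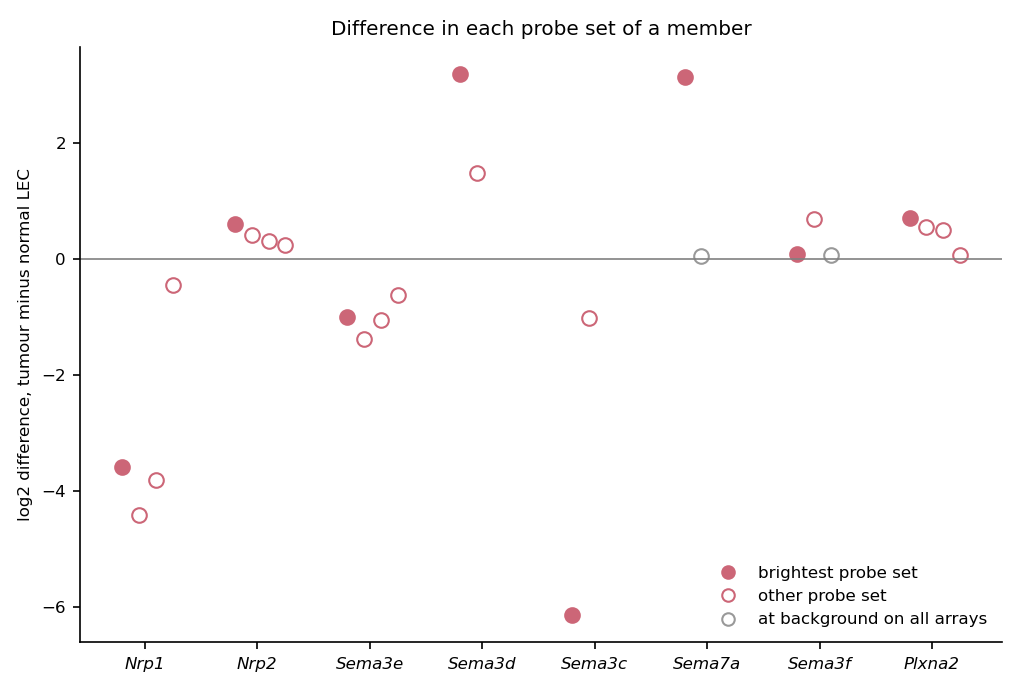
Log2 difference, tumour LEC minus normal LEC, in every probe set of 8 members with more than 1 probe set, with the brightest filled and probe sets at background on all arrays in grey. The probe sets of Nrp1, Sema3e and Nrp2 share a sign, Sema3d has 3.18 and 1.47, and the difference of Sema7a (3.14) is found in 1 of its 2 probe sets.

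None of the 9 plexins passed the test. Plxnb2, the B plexin that binds class 4 semaphorins, was steady in normal LEC at 10.15, 9.94 and 10.00 and read 9.58, 9.64 and 8.96 in tumour LEC. The groups did not overlap, with tumour replicate 3 the lowest, and the difference was -0.64 (SE 0.21, adjusted p = 0.255), or -0.42 (SE 0.095) without that array. Plxnd1, the endothelial plexin that receives semaphorin 3E, read 7.41, 7.43 and 7.98 in normal and 8.97, 7.89 and 6.94 in tumour LEC. The tumour arrays spanned the whole normal range, and the difference of 0.33 (SE 0.53) became -0.19 without tumour replicate 1.

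Plxna2, a receptor of semaphorin 6A, read 8.17, 9.71 and 10.50 in normal and 10.02, 9.97 and 10.48 in tumour LEC. Normal replicate 1 was the one low array in each of its 4 probe sets, and the difference of 0.70 (SE 0.60) was 0.05 without it. Plxna4, a partner of neuropilin 1 in class 3 signalling, stayed between 4.79 and 5.06 and differed by 0.04 (SE 0.13), a sign that changed in 2 settings, while its other probe set ranged from 3.32 to 5.90. Plxnb1, the receptor of semaphorin 4D, read 3.64 to 3.78 in normal and 3.76 to 4.19 in tumour LEC, just above the limit. Plxna3 and Plxnb3, the latter a receptor of semaphorin 5A, were at background on all arrays.

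The wide spread of Nrp1 between tumour arrays stands beside members of both kinds. The SD was larger in tumour than in normal LEC for 15 of the 23 members above background, beside 61.4% of all genes above background, and the median SD was 0.41 in tumour and 0.43 in normal LEC. Tumour replicate 3 held the highest tumour value for 13 of the 23 members and the lowest for 7, namely Nrp1, Nrp2, Plxna1, Plxnb2, Plxnd1, Sema3e and, tied with replicate 2, Sema4d.

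Co-receptors, effectors and processing enzymes of the pathway gave no call. The list, written with earlier results of these data known, held 68 genes, of which 65 were measured and 60 tested, and 0 passed (limma), 11 had an unadjusted p under 0.05, beside 15.5% of all genes, and 2 passed with arrays weighted by quality, where 2.97% of all genes did. Of the 55 above background on some array, 7 had all tumour arrays above the normal arrays and 8 below, 15 in all beside 27.2%. Their median difference over the 65 was 0.06. The values of the members of each sublist with the smallest p follow by role.

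Limk1, the kinase that inactivates cofilin downstream of plexins, read 9.13, 8.63 and 8.52 in normal and 7.40, 7.24 and 6.62 in tumour LEC. Its groups lay more than 2-fold apart throughout, and the difference was -1.68 (SE 0.27, adjusted p = 0.0863). Limk1 was highest in normal replicate 1, as were the fibroblast markers, whose part in the result was not tested. Micall1, a MICAL-like protein, differed by -0.36 (SE 0.17). Rras and Mras, small GTPases of the family on which the GAP domain of plexins acts, went opposite ways, Rras at 0.81 (SE 0.18) and Mras at -0.81 (SE 0.19), and both separated the groups without passing. Cspg4, a proteoglycan of pericytes and other mesenchymal cells, was at background on all tumour arrays and differed by -3.82 (SE 0.68, adjusted p = 0.101), at least 8.84-fold against the background limit. It was highest in normal replicate 1 (8.11), as were the fibroblast markers, whose part in the result was not tested. Pcsk5 and Pcsk6, relatives of furin, the protease family that cuts class 3 semaphorins, differed by -0.96 (SE 0.36) and 0.96 (SE 0.39).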

How the data were processed

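Total RNA of 3 tumour and 3 normal LEC samples was measured on 6 arrays of 45101 probe sets. Per the labels, the deposited table holds log2 expression, and the submitters' processing notes name RMA and GCRMA, with no version, role or order. Either method background-corrects and normalizes the arrays, and values near background carry little information on size.

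The members, lists and tests were chosen with earlier results of these data known. Probe sets came with GEO's platform annotation (34945 with 1 gene, 932 with several, 9160 with none). Those with a mean above the 40th percentile (2.71) were kept (27022), the brightest stood for its gene (12955 genes), and the groups were compared in limma 3.58.1 under R 4.3.3 (lmFit, eBayes, two-sided, Benjamini-Hochberg over all genes). An exact permutation test of 3 against 3 arrays reaches 0.1 at best and was not run. Named were every member, the 2 partners of lowest p in each of 4 sublists, and Lyve1, Prox1, Pdpn, Flt4, Pecam1, Cdh5, Pdgfra, Pdgfrb, Ptprc and Cd68. Lum, Fap and Mmrn1 were named after their values were seen. Pdpn ranged from 11.18 to 12.00 and Flt4 from 11.93 to 12.80, and Pdgfrb from 7.87 to 10.78 in normal and 2.48 to 3.84 in tumour LEC. Tested on simulated data for these groups (12955 genes), the fit called 40%, 76%, 88% and 96% of genes shifted by 1, 2, 4 and 8 log2 units. There were 50 genes at each shift, and 14 of the 12755 unshifted genes were also called. The alternatives changed the filter, the scaling, the variance model, the array weights, the summary over probe sets (chosen anew each time) and the arrays included. Leaving out an array with the probe sets chosen on all 6 arrays was added after the data were seen. Itgb1 and the leukocyte markers Cd14, Csf1r, Laptm5 and Lyz2 were also named after their values were seen.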

Additional observations from a re-analysis of the deposited data

How the results depend on the processing

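Sema7a and Sema3c kept their direction in all 15 alternative settings, and passed in 9 and 10 of them. The count of members past the threshold, 2, was 1 with no filter on low values, 1 with the mean of probe sets, 3 with the 60th percentile filter, 5 with array weights, and 0 to 1 with 1 array left out. With the replicate number as a block it was 2, and the partners past the threshold stayed at 0. Same-numbered arrays had deviations that correlated at 0.19, 0.33 and -0.004, which does not settle whether the numbers pair them. The labels give no animal or culture for a replicate, so the main fit has no pairing. All genes past the threshold numbered 28, against 46 with the replicate block, 385 with array weights, 97 with the 60th percentile filter, 10 with no filter and 4 to 81 with 1 array left out. Partners past the threshold numbered 2 with array weights. The median over the members tested, 0.04, was -0.0815 with the 60th percentile filter, -0.0685 with array weights, and -0.0751 to 0.101 with 1 array left out. The cause of these moves was not tested.

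A sign changed for 9 members, none of them past the threshold. With median centring Plxna4 was -0.021, Sema3a -0.0234 and Sema6c -0.0385. With quantile normalization Sema4c was 0.0298, Sema4d 0.0118 and Sema6a 0.0654. With array weights Sema3a was -0.0685 and Sema3f -0.323, and with the mean of probe sets Plxnc1 was -0.0576. With 1 array left out Plxna4 ran from -0.0347 to 0.12, Plxnd1 from -0.191 to 0.825, Sema3a from -0.0601 to 0.119, Sema3f from -0.375 to 0.396, Sema4c from -0.475 to 0.101, Sema4d from -0.524 to 0.0457, Sema6a from -0.383 to 0.169 and Sema6c from -0.00249 to 0.0406. Members at background on all arrays have no order that the arrays can show.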
